A study of Mus musculus with 4 samples.

Results

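The transcripts of 8 acute-phase protein genes (Saa3, Saa1, Saa2, Lcn2, Hp, Orm1, Serpina3n and Cp) were followed by cell class and by day in single-cell RNA-sequencing data of the injured mouse carotid artery. The 8 genes, of 31053 listed in the files, were chosen by the function of their proteins, with earlier results of these libraries known, in which Saa3 was high in fibroblast-like cells after injury. Their levels are therefore given as a description, with no test. In the files these genes carry the identifiers ENSMUSG00000040026 (Saa3), ENSMUSG00000074115 (Saa1), ENSMUSG00000057465 (Saa2), ENSMUSG00000026822 (Lcn2), ENSMUSG00000031722 (Hp), ENSMUSG00000039196 (Orm1), ENSMUSG00000021091 (Serpina3n) and ENSMUSG00000003617 (Cp). All 4 groups were carotid arteries of male C57BL/6 mice, 11 weeks of age before injury. One group was uninjured (day 0), and the others were taken on days 3, 7 and 14 after wire injury, in which a wire is passed along the artery. According to the study, its deep form of the injury does more than remove endothelium, since it also disrupts the internal elastic lamina. According to the methods, arteries from several animals went into each digestion, and those holding a thrombus were not used, so each day is 1 library of pooled animals and animals cannot be told apart. With 1 library per day there was no replicate check, and every interval below is a 95% interval that covers counting error only.

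Acute-phase proteins are secreted into the blood in larger or smaller amounts during inflammation, mostly by hepatocytes under the control of interleukin-1 and interleukin-6 type cytokines. The serum amyloid A proteins bind lipoproteins, and in the mouse Saa1 and Saa2 are the liver forms while Saa3 is made mainly outside the liver. Lipocalin 2 (Lcn2) captures bacterial iron carriers and is stored in neutrophil granules, haptoglobin (Hp) binds free haemoglobin, and orosomucoid (Orm1) carries small lipophilic molecules. Serpina3n inhibits serine proteases, and ceruloplasmin (Cp) carries copper and oxidises iron.

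The control regions of the 3 serum amyloid A genes and of Lcn2 are shown, as genes of the group known for induction by inflammatory cytokines. Promoters (250 bases before to 50 after the start of transcription) were taken from RefSeq on build GRCm38.p6, where 6 of the 8 genes matched. Hp and Orm1 had no entry there and could not be shown. They were searched on both strands for a C/EBP motif (TTGCNNAA), a STAT motif (TTCNNNGAA) and the kappa-B motif. Capitals mark the C/EBP match, each sequence reads 5′ to 3′ along the gene's own strand, and none of the 4 held a STAT or kappa-B match.
Saa3 (chr7:46715627-46715926, minus strand): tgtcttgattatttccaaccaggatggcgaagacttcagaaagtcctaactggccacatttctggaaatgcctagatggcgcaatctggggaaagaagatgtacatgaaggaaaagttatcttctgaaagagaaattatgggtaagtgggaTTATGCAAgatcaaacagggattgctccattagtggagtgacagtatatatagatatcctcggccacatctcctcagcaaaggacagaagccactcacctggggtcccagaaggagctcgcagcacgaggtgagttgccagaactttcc
Saa1 (chr7:46742931-46743230, minus strand): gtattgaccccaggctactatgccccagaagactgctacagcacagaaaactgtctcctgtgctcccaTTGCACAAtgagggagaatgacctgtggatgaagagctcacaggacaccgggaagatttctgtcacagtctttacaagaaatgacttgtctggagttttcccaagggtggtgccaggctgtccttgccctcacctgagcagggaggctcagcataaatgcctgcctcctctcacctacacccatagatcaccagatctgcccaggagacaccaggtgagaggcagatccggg
Saa2 (chr7:46751583-46751882, plus strand): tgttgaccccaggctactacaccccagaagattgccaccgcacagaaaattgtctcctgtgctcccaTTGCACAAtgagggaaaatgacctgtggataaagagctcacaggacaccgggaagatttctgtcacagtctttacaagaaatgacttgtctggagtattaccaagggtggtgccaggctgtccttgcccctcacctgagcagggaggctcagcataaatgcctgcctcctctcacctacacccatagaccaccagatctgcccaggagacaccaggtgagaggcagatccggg
Lcn2 (chr2:32387690-32387989, minus strand): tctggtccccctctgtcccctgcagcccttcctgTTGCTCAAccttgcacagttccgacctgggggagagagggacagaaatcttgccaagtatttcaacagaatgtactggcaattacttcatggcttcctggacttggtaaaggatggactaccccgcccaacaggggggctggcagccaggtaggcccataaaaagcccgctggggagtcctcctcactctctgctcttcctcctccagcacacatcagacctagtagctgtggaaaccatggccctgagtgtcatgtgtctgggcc

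The C/EBP match began 99 bases before the start of transcription in Saa3, 182 in Saa1, 183 in Saa2 and 216 in Lcn2. Of all 32851 promoters in the table, 10.8% held such a match, 8.30% a STAT match and 8.46% a kappa-B match. Serpina3n held none of the motifs, and Cp held 1 C/EBP match in 1 of its 2 promoters. The Saa1 and Saa2 promoters were 95.4% identical over their alignment, against 50.9% for Saa3 and Saa1. A match is a description of letters and was not tested for binding.

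Barcodes called as cells numbered 333, 1689, 3001 and 1138 on days 0, 3, 7 and 14, with 2672722 to 27973418 unique molecular identifiers (UMIs, 1 for each captured RNA molecule) per library. Libraries shared barcodes. Days 0 and 3 shared 152 barcodes and days 7 and 14 shared 64, and in 214 of these pairs 1 copy held less than 20% of the UMIs of the other. The 48 shallow copies of day 0 held a median of 0.915% of the UMIs of their day 3 partners, and their expression profile was most like that of their own partner in 48 of 48 cases. Of the 155 Saa3 UMIs in the uninjured library 154 lay in these copies, as did 21 of 25 Lcn2 UMIs, 13 of 21 Hp UMIs and 1 of 71 Serpina3n UMIs. With the copies, Saa3 stood at 58.0 CPM (UMIs of the gene per 1000000 UMIs) over all day 0 barcodes, and without them at 0.38 CPM. On day 14, 44 of 105 Saa3 UMIs and 33 of 137 Lcn2 UMIs lay in copies. The copies were therefore removed from every value below unless stated, and why barcodes were shared was not tested.

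After filtering, 281, 1403, 2693 and 1029 cells of days 0, 3, 7 and 14 remained and were clustered without the 8 genes. Classes were named from marker genes, each name standing for resemblance only, and 2.14% to 16.9% of the cells of a day stayed unnamed. For some unnamed clusters of low depth, fibroblast markers were the best-matching list. Among them were clusters with 49 and 27 cells of day 3, at a median of 2017.5 and 974 UMIs per cell. Fibroblast-like levels and shares below leave these cells out. Over all days together, fibroblast-like cells carried Pdgfra, Dcn and Col1a1 at 282, 9382 and 16576 CPM. They numbered 232, 118, 186 and 491 on days 0, 3, 7 and 14. The study proposes that a population of day 7, which it first annotated as fibroblasts, may derive from smooth muscle cells (SEM cells). No such class was named here. Monocyte/macrophage-like and dendritic-like clusters could not be parted cleanly by their leading genes and are given together as mononuclear phagocyte-like cells (685, 1268 and 216 on days 3, 7 and 14). Neutrophil-like cells numbered 232 and 116 on days 3 and 7 and none on days 0 and 14. Depth differed between days: the median fibroblast-like cell had 8263 UMIs on day 0, 41363.5 on day 3, 30370.5 on day 7 and 18780 on day 14. Shares of positive cells were therefore taken after each cell had been thinned to 1000 UMIs.

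On days 3 and 7 most Saa3 transcripts lay in fibroblast-like cells. The level of Saa3 in these cells was 0 of 2217600 UMIs on day 0, 3506 CPM (3457 to 3556) on day 3, 553 CPM (534 to 573) on day 7 and 3.46 CPM (2.35 to 4.92) on day 14. Day 3 was thus the high point among the days sampled. The count of 0 on day 0 was replaced by a floor of 3 UMIs over all fibroblast-like cells. Against this floor the level was 2592-fold higher on day 3, 409-fold higher on day 7 and 2.56-fold higher on day 14. With the count of 0 itself, the lower ends of the intervals of these ratios were 2108, 332 and 1.96. By day 14 the level was 1012 times lower than on day 3 (713 to 1490.3). On day 14, 16 of the 31 UMIs came from 1 cell, and the level without it was 1.68 CPM. Among the 48 fibroblast-like cells of day 3 with up to 30000 UMIs the level was 1803 CPM (1696 to 1916).

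**Figure D1:**
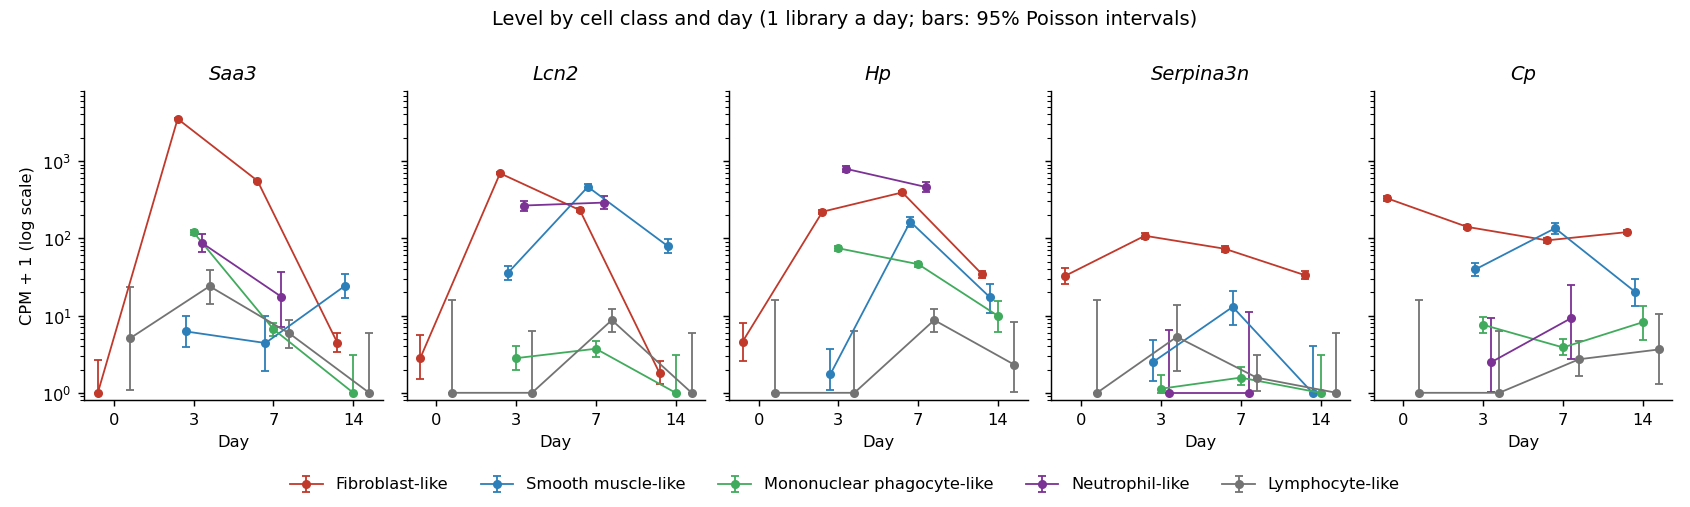
Level of each transcript in CPM plus 1 (log scale) by day, for 5 cell classes on days with at least 20 cells of the class. Points are levels over 1 library, bars are 95% Poisson intervals and lines join days of a class. Saa3 in fibroblast-like cells stood at 3506 CPM on day 3 and 3.46 CPM on day 14, while Cp was at its highest on day 0.

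Lcn2 followed Saa3 in fibroblast-like cells. Its level there was 1.80 CPM (0.491 to 4.62) on day 0, 691 CPM (670 to 714) on day 3, 230 CPM (218 to 242) on day 7 and 0.782 CPM (0.314 to 1.61) on day 14. The day 3 level was 383-fold that of day 0 (150 to 1408), and the wide interval reflects only 4 UMIs on day 0, 3 of them in 1 cell. Day 14 and day 0 were not distinguishable at this depth, with a ratio of 0.434 (0.110 to 2.02). The day 7 level rested in part on deep cells, since cells with up to 30000 UMIs had 61.6 CPM (47.8 to 78.1).

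Hp was highest on day 7 in fibroblast-like cells and was above its day 0 level on day 14. In fibroblast-like cells it stood at 3.61 CPM (1.56 to 7.11) on day 0, 219 CPM (207 to 232) on day 3, 391 CPM (375 to 407) on day 7 and 33.2 CPM (29.5 to 37.2) on day 14. Day 7 was 1.78-fold above day 3 (1.66 to 1.91), in contrast to Saa3 and Lcn2, which were lower on day 7 than on day 3. On day 14 Hp was 9.20-fold above day 0 (4.61 to 21.5), where 4 of its 8 UMIs came from 1 cell. The day 3 value rested on deep cells: among the 48 fibroblast-like cells with up to 30000 UMIs, Hp had 5 UMIs, or 8.62 CPM (2.80 to 20.1). On day 7 such cells had 192 CPM (167 to 220).

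Serpina3n was present before injury. Its level in fibroblast-like cells was 31.6 CPM (24.6 to 39.9) on day 0, 107 CPM (98.2 to 116) on day 3, 72.1 CPM (65.4 to 79.3) on day 7 and 32.4 CPM (28.8 to 36.4) on day 14. Day 3 was 3.38-fold above day 0 (2.63 to 4.396) and day 7 was 2.28-fold above it (1.77 to 2.99). Day 14 and day 0 had a ratio of 1.03 (0.788 to 1.35). With each cell weighted equally the day 3 mean was higher, at 270 CPM against 42.5 CPM on day 0. The 48 fibroblast-like cells of day 3 with up to 30000 UMIs had 381 CPM (332 to 435).

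Cp was the member with its highest fibroblast-like level before injury. It stood at 326 CPM (303 to 351) on day 0, 139 CPM (129 to 149) on day 3, 92.9 CPM (85.3 to 101) on day 7 and 119 CPM (112 to 126) on day 14. The summed level was thus 2.35 times lower on day 3 than on day 0 (2.12 to 2.60) and 3.51 times lower on day 7 (3.14 to 3.93). The difference of day 3 depended on deep cells, because the 48 fibroblast-like cells with up to 30000 UMIs had 331 CPM (286 to 381) of Cp. On days 7 and 14, cells of that depth had 174 CPM (150 to 200) and 132 CPM (124 to 141). With each cell weighted equally the means were 243, 187, 177 and 122 CPM on days 0, 3, 7 and 14, and none of the later days was lower by 2-fold.

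The liver-type genes were almost silent. Saa1 had 16, 2 and 17 UMIs in fibroblast-like cells on days 3, 7 and 14 and none on day 0, and all 17 of day 14 came from 1 cell. Saa2 had 10 UMIs on day 3 in 7 fibroblast-like cells and none on other days. Orm1 had 1, 1 and 2 UMIs in fibroblast-like cells on days 3, 7 and 14. Saa1 and Saa2 share sequence, since 11.9% of the 98-base windows near the transcript ends of Saa1 occur unchanged in Saa2, so reads there cannot be assigned to one of them. For Saa3, Lcn2, Hp, Serpina3n and Cp no more than 0.0760% of such windows occur in another gene.

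Over all genes with at least 20 UMIs in both days together, 4.55% of 11098 were higher by at least 2-fold in fibroblast-like cells on day 3 than on day 0, and 4.28% were lower (log2 of CPM plus 10). Of the 8 members, 5 had enough UMIs, of which Saa3, Lcn2, Hp and Serpina3n were higher and Cp lower. On day 7, 4.20% of genes were higher and 3.57% lower, and 3 of 5 members were higher (Saa3, Lcn2, Hp) and Cp lower, with Serpina3n just under the limit at a log2 ratio of 0.98. On day 14, 2.40% of genes were higher and 1.58% lower, and of 4 members Hp was higher and Cp lower. The members' median log2 ratio was 4.08, 4.35 and 0.23 on days 3, 7 and 14, against -0.03, 0.00 and -0.01 for all genes. The members were chosen with such values in view, so their counts are no evidence about the group. Ranked by the log2 ratio of day 3, Saa3 stood 1st of 11098 genes, Lcn2 4th and Hp 10th.

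The share of fibroblast-like cells with a Saa3 UMI, after thinning to 1000 UMIs, was 39.3% (30.4 to 48.8) on day 3, 6.49% (3.40 to 11.1) on day 7 and 0.21% (0.0053 to 1.16) on day 14. On day 0 it was 0 of 208 cells, which allows a share of up to 1.44%. Without thinning the shares were 65.3%, 17.2% and 1.83% on days 3, 7 and 14. The share of Lcn2 was 23.9% (16.5 to 32.7) on day 3 and 4.32% (1.89 to 8.34) on day 7. Hp was seen in 5.98% (2.44 to 11.9), 10.3% (6.30 to 15.6) and 2.30% (1.15 to 4.07) of cells on days 3, 7 and 14. Serpina3n was seen in 3.37% (1.36 to 6.81) on day 0 and 11.97% (6.70 to 19.3) on day 3, and Cp in 15.9% (11.2 to 21.6) and 11.97% (6.70 to 19.3). The intervals of Cp on days 0 and 3 overlap widely, unlike the summed levels.

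**Figure D2:**
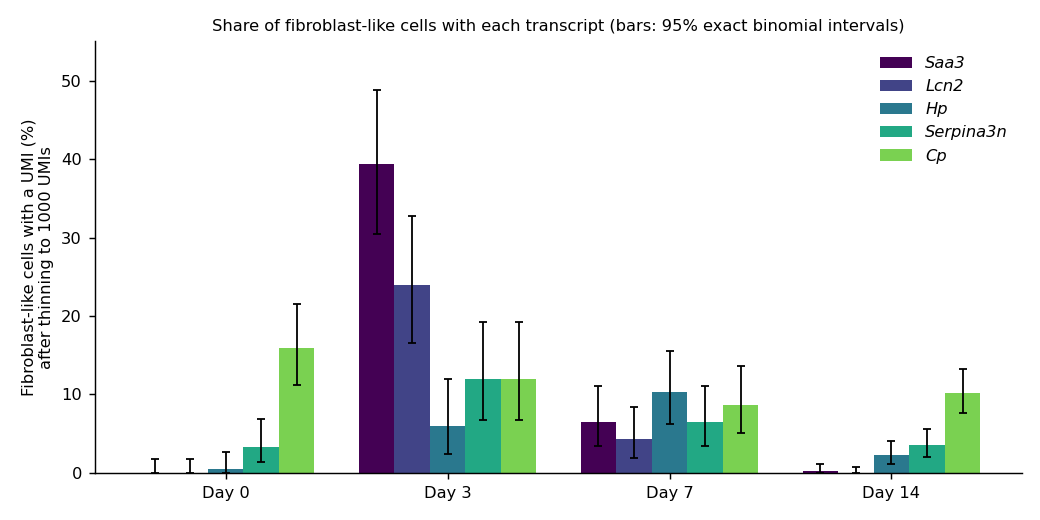
Share of fibroblast-like cells with at least 1 UMI of each transcript after thinning every cell to 1000 UMIs, by day. Bars show the share in percent and lines its 95% exact binomial interval; Saa3 was seen in 39.3% of cells on day 3 and 0.21% on day 14.

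The response was uneven from cell to cell. On day 3, 7 of 118 fibroblast-like cells held at least 50% of the Saa3 UMIs, while 41 cells had none at all. These counts were not thinned and depend in part on depth, which ranged from 930 to 202235 UMIs per cell. The 48 cells with up to 30000 UMIs held 1046 of the 19127 Saa3 UMIs. The median cell had 195 CPM and the highest 41604 CPM, a cell in which Saa3 made up 4.16% of all UMIs (3242 of 77926). That cell carried 1445 UMIs of Col1a1 and 0 of Ptprc, the pan-leukocyte gene, and was also the cell with most Lcn2 (797 UMIs). The same share was reached by 3 cells for Lcn2, 5 for Hp, 8 for Serpina3n and 14 for Cp. By day 7, 10 cells held 99.0% of the Saa3 UMIs of the class. Without the 10 highest cells of each day, the log2 ratio of Saa3 to day 0 was 7.10 on day 3 but 0.70 on day 7, against 8.46 and 5.82 with them, so that the day 7 level was no longer past 2-fold (10 CPM added).

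**Figure D3:**
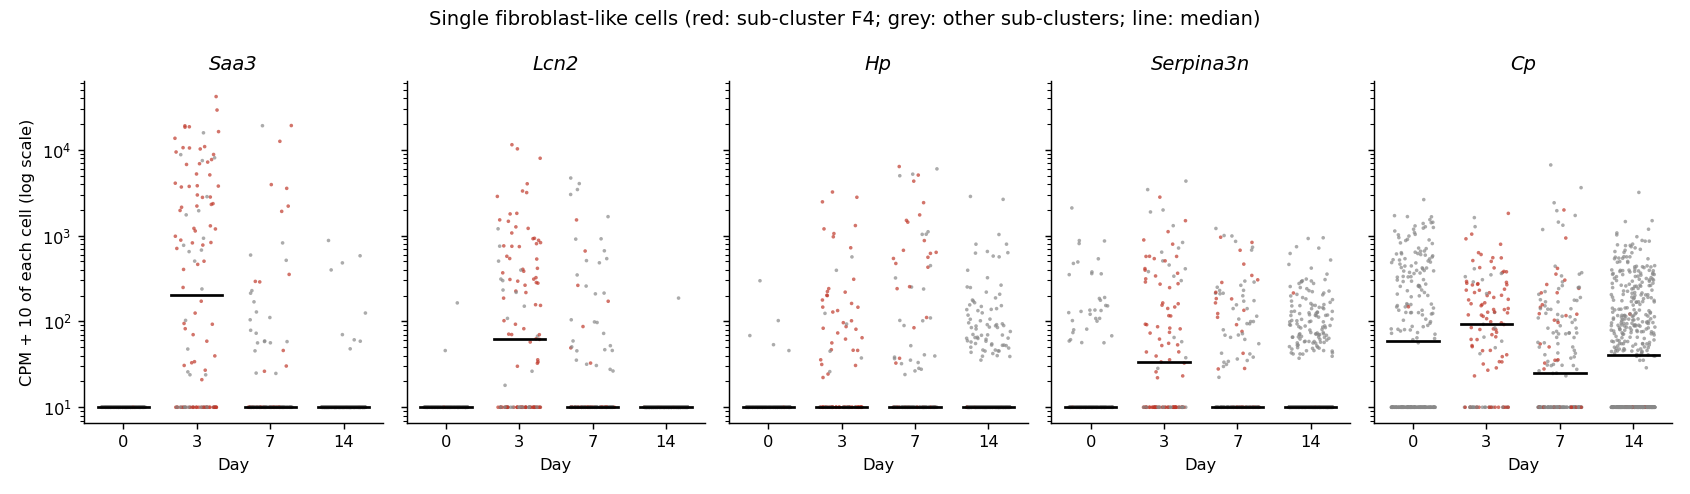
Each point is 1 fibroblast-like cell, at its own CPM plus 10 (log scale), by day. Red points belong to sub-cluster F4 and the black line is the median of all cells of the day; the median of Saa3 was 195 CPM on day 3, and most cells of the other days have no Saa3.

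Fibroblast-like cells were divided again into 8 sub-clusters, F0 to F7, without the members. Sub-cluster F4, led by Prg4, Isg15 and Serpinb1a, held 82 of the 118 cells of day 3 and 30 of the 186 cells of day 7. Saa3 was at 4371 CPM (4307 to 4436) in F4 on day 3 and at 2468 CPM (2375 to 2563) on day 7, and the sub-cluster held only 4 cells on day 14. The day 7 level without its highest cell was 1557 CPM. Lcn2 and Hp went opposite ways within F4. From day 3 to day 7 Lcn2 went from 894 CPM (865 to 923) to 158 CPM (135 to 184), and Hp from 263 CPM (247 to 279) to 1260 CPM (1194 to 1328). Without the highest cell of each, the levels went from 711 to 63.3 CPM for Lcn2 and from 217 to 981 CPM for Hp. The cycling sub-cluster F7, led by Hist1h2ap, Ube2c and Top2a, carried 896 CPM of Lcn2 (845 to 949) and 31.9 CPM of Saa3 (22.9 to 43.3) on day 7. Of its 1152 Lcn2 UMIs on that day, 793 lay in 2 of the 28 cells, without which the level was 326 CPM. On day 3 the 16 cells of F7 had 708 CPM of Saa3, or 317 CPM without the highest cell.

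Sub-clusters of the resting and late artery differed in their members. F2, led by Lamc3 and present mainly on day 0 (142 cells), had 408 CPM of Cp (377 to 441) on that day and no Saa3. F0, led by Col2a1, and F1, led by C1qtnf3, made up most of day 14 with 127 and 171 cells and had 0 and 0.275 CPM of Saa3. F3, a sub-cluster of shallow cells, held 22 of the 31 Saa3 UMIs of day 14 in its 55 cells, at 71.2 CPM (44.6 to 108), and 16 of them came from 1 cell. Of the 5 sub-clusters with at least 20 cells on day 14, F6, led by Apod, had the highest Hp level at 148 CPM (126 to 172) and the highest Cp level at 231 CPM (204 to 261). The 59 cells of F6 on day 14 held 170 of the 297 Hp UMIs of the class. F6 had only 1 cell on day 3 and 5 on day 7. Without F4, the log2 ratio of Saa3 to day 0 was 6.64 on day 3 and 3.74 on day 7. Of the 598 Saa3 UMIs outside F4 on day 7, 540 came from 1 cell of F6, and without that cell the log2 ratio was 1.14.

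**Figure D4:**
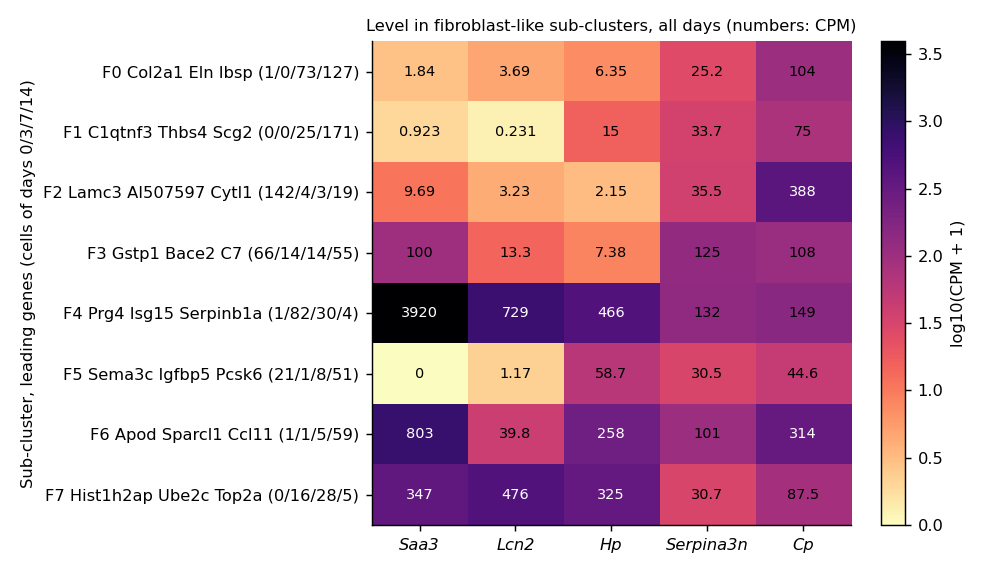
Level of each transcript in the 8 fibroblast-like sub-clusters over all days, as CPM (numbers) and log10 of CPM plus 1 (colour), with the leading genes and the number of cells of days 0, 3, 7 and 14 beside each. F4 had 3920 CPM of Saa3 over all days and F5 had none. Of the 990 Saa3 UMIs of F6, 540 came from 1 cell of day 7, and the 59 of its 66 cells from day 14 had none.

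Within single thinned cells of day 3, Saa3 and Lcn2 were seen together. Of 28 cells with Lcn2, 20 (71.4%) also had Saa3, which was seen in 39.3% of all cells, and these 20 were 43.5% of the cells with Saa3. Of 14 cells with Cp, 5 (35.7%) had Saa3. On day 7, 8 of 12 cells with Saa3 (66.7%) had Hp, which was seen in 10.3% of all cells. At least 2 of the 5 measurable members were seen in 1.44%, 25.6%, 8.65% and 1.46% of cells on days 0, 3, 7 and 14.

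The members differed in the classes that held them. Fibroblast-like cells held 94.7% (94.4 to 95.01) of the Saa3 UMIs of day 3 and 92.1% of those of Lcn2, but only 51.9% (49.9 to 54.0) of those of Hp. Without cells above 30000 UMIs these day 3 shares were 50.7%, 57.1% and 0.458%. That limit removed 70 of 118 fibroblast-like, 18 of 685 mononuclear phagocyte-like and 0 of 232 neutrophil-like cells. It thus took out mainly fibroblast-like UMIs and is no comparison of classes at equal depth. On day 7 fibroblast-like cells held 95.3% of Saa3, 63.4% of Lcn2 and 68.4% of Hp, and 79.3%, 22.1% and 19.4% without deep cells. There the limit removed 94 of 186 fibroblast-like and 35 of 1268 mononuclear phagocyte-like cells. On day 14 they held 31 of 60 Saa3 UMIs (51.7%), 7 of 104 Lcn2 UMIs (6.73%) and 297 of 335 Hp UMIs (88.7%), and smooth muscle-like cells held 48.3% of Saa3 and 93.3% of Lcn2, nearly all of it in 1 cell. The other Hp transcripts of day 3 lay in mononuclear phagocyte-like cells (24.6%) and neutrophil-like cells (22.9%). Serpina3n was nearly restricted to fibroblast-like cells, which held 98.5% of its UMIs on day 3 and 91.6% on day 7. Cp was shared with smooth muscle-like cells, which held 18.4% (15.9 to 21.2) of its UMIs on day 7.

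**Figure D5:**
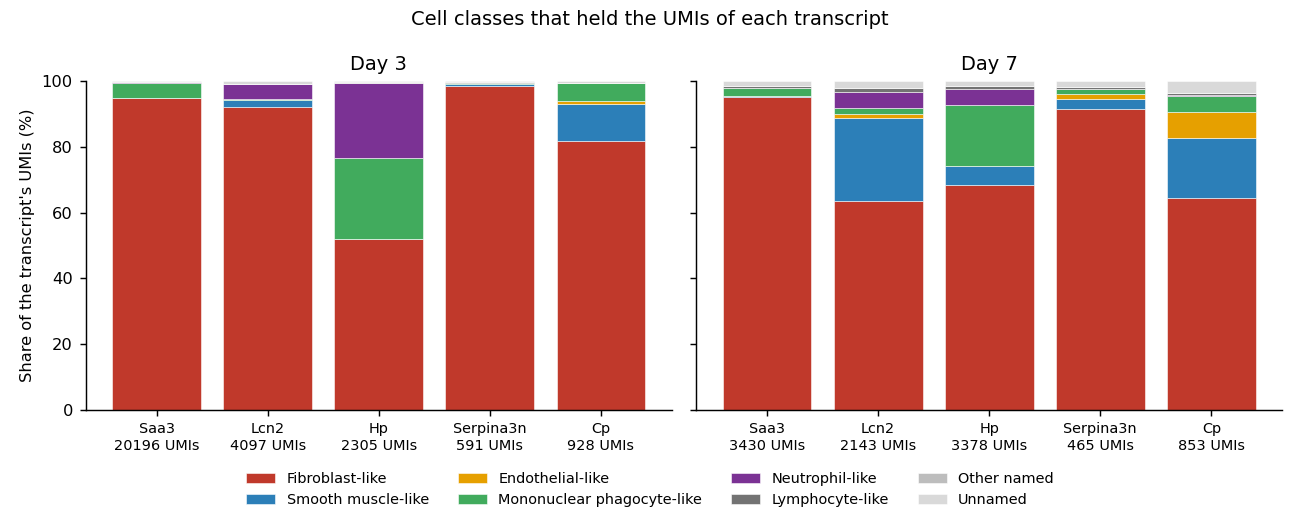
Share of each transcript's UMIs (percent) held by each cell class on day 3 and day 7, with the number of UMIs under each bar. Fibroblast-like cells (red) held 94.7% of Saa3 on day 3, or 50.7% without cells above 30000 UMIs, a limit that removed 70 of their 118 cells. Hp was divided with mononuclear phagocyte-like (green) and neutrophil-like (purple) cells.

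Neutrophil-like cells carried Hp at 788 CPM (722 to 858) on day 3 and 458 CPM (391.6 to 534) on day 7. On day 3 this was above the fibroblast-like level, and on day 7 the ratio of fibroblast-like to neutrophil-like cells was 0.853 (0.728 to 1.004). Hp was seen in 38.7% (32.3 to 45.5) and 22.6% (15.1 to 31.8) of thinned neutrophil-like cells. Lcn2 was at 264 CPM (227 to 306) and 288 CPM (236 to 349), with a day 7 to day 3 ratio of 1.09 (0.849 to 1.40). Serpina3n had no UMI in neutrophil-like cells on either day. Neutrophil genes such as S100a8 and Retnlg were far lower in fibroblast-like cells. In neutrophil-like cells S100a8 was at 18663 and 12931 CPM and Retnlg at 437 and 653 CPM on days 3 and 7. In fibroblast-like cells S100a8 was at 1.47 CPM and Retnlg at 0 on day 3. Both genes are among the markers that named neutrophil-like cells, so this difference follows from the naming.

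In mononuclear phagocyte-like cells Saa3 was at 118 CPM (110 to 126) on day 3, 5.65 CPM (4.47 to 7.04) on day 7 and 0 of 1803710 UMIs on day 14. Most of it on day 3, 796 of 914 UMIs, lay in the cluster led by Arg1, Pf4 and Ccl6, at 315 CPM (293 to 337). One cell of that cluster held 429 UMIs, and without it the cluster was at 146 CPM and the class at 62.7 CPM. In that cell Saa3 made up 3.58% of all UMIs, next to 131 UMIs of Lyz2 and none of Col1a1 or Dcn. Hp was at 73.2 CPM (67.3 to 79.5), 45.1 CPM (41.7 to 48.8) and 8.87 CPM (5.07 to 14.4) on days 3, 7 and 14, with 7 of the 16 UMIs of day 14 in 1 cell. The cluster led by Chil3, Thbs1 and Osm had the most Hp on day 7, 140 CPM (128 to 153) in 386 cells, against 7.58 CPM (4.86 to 11.3) in the cluster led by Ms4a7 and Apoe.

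Smooth muscle-like cells had 5.23 CPM of Saa3 (2.86 to 8.78) on day 3, and some of them held Lcn2. Its level was 34.8 CPM (28.1 to 42.6) on day 3, 462 CPM (424 to 502) on day 7 and 78.2 CPM (63.4 to 95.4) on day 14. These values rested on few cells: 1 cell held 81.7% of the UMIs on day 3, 43.7% on day 7 and all 97 UMIs on day 14. That day 14 cell also held 28 of the 29 Saa3 UMIs of the class and carried fibroblast genes, with 150 UMIs of Dcn, 115 of Col1a1 and 9 of Pdgfra, beside 214 of Acta2 and 4 of Myh11. Without cells above 30000 UMIs, Lcn2 was at 4.27 CPM on day 3 and 33.6 CPM (20.2 to 52.4) on day 7. On day 7, 10 smooth muscle-like cells held all Lcn2 UMIs of the class, and Lcn2 was seen in 7.02% (1.95 to 17.0) of thinned cells. Hp in smooth muscle-like cells was at 163 CPM (140 to 187) on day 7, or 15.9 CPM without the 1 cell that held 173 of its 191 UMIs. Endothelial-like cells were counted in number only on day 7 (45 cells), where Cp was at 88.2 CPM (68.4 to 112) and Saa3 had 3 UMIs. The 37 of these cells with up to 30000 UMIs had 279 CPM of Cp (208 to 366). Fibroblast-like and smooth muscle-like cells of that depth had 174 and 115 CPM on that day. The 6 endothelial-like cells of day 0 held 18 UMIs of Cp among 14961 UMIs in all.

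Lymphocyte-like cells, which are not known to make these proteins, are given as a comparison for RNA that may come from outside a cell. How much of their signal was such free RNA was not tested. On day 3 Saa3 was at 22.9 CPM (13.1 to 37.3) in them and Lcn2, Hp and Cp had no UMI, and on day 7 Saa3 was at 4.87 CPM and Lcn2 and Hp at 7.73 CPM each, with 10 of the 27 Hp UMIs in 1 cell. Fibroblast-like cells exceeded this level of Saa3 by 153-fold (94.1 to 267) on day 3. For every 100 Col1a1 UMIs of day 3 there were 29.1 Saa3 UMIs in lymphocyte-like cells and 26.6 in fibroblast-like cells. The value was 325 in mononuclear phagocyte-like, 79.5 in neutrophil-like and 0.186 in smooth muscle-like cells. Of the 914 Saa3 UMIs of mononuclear phagocyte-like cells, 429 lay in 1 cell without Col1a1. The share of thinned cells with Saa3 on day 3, 4.61% (3.16 to 6.48) in mononuclear phagocyte-like, 4.50% (2.18 to 8.13) in neutrophil-like and 1.53% (0.185 to 5.41) in lymphocyte-like cells, does not separate these classes. The ratio of summed levels was 5.14 (3.15 to 9.03) for mononuclear phagocyte-like to lymphocyte-like cells and 3.77 (2.14 to 7.03) for neutrophil-like to lymphocyte-like cells. Both rested in part on 1 cell, which held 29 of the 58 UMIs of neutrophil-like cells, and without the highest cell of each class the ratios were 2.73 and 1.90. The median cell of these classes had 9763, 2860.5 and 4850 UMIs. Saa3 in smooth muscle-like cells was below the lymphocyte-like level on day 3 (ratio 0.228, 0.103 to 0.499).

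Markers of other cell types were counted in fibroblast-like cells. Of 5 hepatocyte markers, including Alb and Ttr, all were at 0 on days 0, 3 and 14, and 1 of them had 7 UMIs on day 7. Of 5 adipocyte markers 4 were at 0 on each day. The summed level of 10 neutrophil markers went from 114 CPM on day 0 to 37.2, 26.4 and 43.2 CPM on days 3, 7 and 14, with 8, 3, 1 and 4 of them at 0. That of 14 monocyte and macrophage markers was 31.1, 356, 193 and 173 CPM on the same days, and 1 was at 0 on day 3. That of 10 smooth muscle markers was 392.3, 469, 1652 and 395.2 CPM, with 2, 0, 0 and 0 at 0. Their part in the results was not tested.

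Related genes were taken as lists, chosen with earlier results of these libraries known. Over all genes, 4.55%, 4.20% and 2.40% were higher by 2-fold on days 3, 7 and 14, and 4.28%, 3.57% and 1.58% lower. The lists are short, so their counts are given beside these shares as a description and not as a result about a list. Of 9 other positive acute-phase genes with enough UMIs (29 listed in the files), 1 was higher in fibroblast-like cells on day 3 (Mt2, a metallothionein) and 1 lower (Serping1, the C1 inhibitor), with a median log2 ratio of 0.43. Mt2 was at 460 CPM on day 0 and 1860 CPM on day 3. Serping1 was at 2212 CPM and 721 CPM. The complement gene C3 was at 773 CPM on day 0, 477 CPM on day 3 and 474 CPM on day 7. On days 7 and 14 the list had 0 and 1 genes higher (C4b on day 14) and 1 and 2 lower. The medians of days 7 and 14 were -0.43 and -0.45.

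Negative acute-phase genes, whose proteins are lowered in blood plasma during inflammation, included 3 with enough UMIs. On each of days 3, 7 and 14, 2 of the 3, Rbp4 and Ahsg, were lower than on day 0 and none was higher. Rbp4, the retinol carrier, was at 1382 CPM (1333 to 1431) on day 0, 152 CPM (142 to 163) on day 3, 49.3 CPM (43.8 to 55.3) on day 7 and 214 CPM (204 to 223) on day 14. The median log2 ratio of the list was -1.40, -2.46 and -1.63.

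Of the cytokines known to induce acute-phase genes, 5 of 12 had enough UMIs on day 3, and Il6 and Clcf1 were higher. On day 7 Il6 and Il1b were higher of 7, and on day 14 Il6 of 5, with none lower on any day. Il6 in fibroblast-like cells was at 0.451, 59.0, 40.8 and 31.5 CPM on days 0, 3, 7 and 14, the first resting on 1 UMI. Il1b was chiefly a gene of neutrophil-like cells, at 15109 CPM on day 3, and of mononuclear phagocyte-like cells, at 637 CPM. Osm, which encodes oncostatin M, was at 680.5 CPM in neutrophil-like and 59.9 CPM in mononuclear phagocyte-like cells on day 3. All 10 receptor genes were measured in fibroblast-like cells. The interleukin-1 receptor gene Il1r1 was at 39.2 CPM on day 0 and 136 CPM on day 3, and was the only one of them higher by 2-fold, while Il11ra1 and Lifr were lower. On day 7 only Lifr was lower, and on day 14 none of the 10 passed 2-fold. The oncostatin M receptor gene Osmr was at 49.2 and 83.2 CPM and the shared receptor gene Il6st at 183 and 234 CPM.

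Among 10 measured transcription factor and feedback genes, Nfkbiz and Nfkbia were higher on days 3 and 7, and Cebpd was lower on day 3. Nfkbiz, a nuclear co-regulator of NF-kappa-B targets, was at 23.4, 166, 134 and 65.7 CPM on days 0, 3, 7 and 14. Cebpd, which encodes a C/EBP factor, was at 1090, 319, 555 and 740 CPM, with its low point on day 3. Socs3, the feedback inhibitor of interleukin-6 signalling, was at 82.1, 60.3, 134 and 238 CPM and was higher by 2-fold on day 14 only, together with Nfkbiz.

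Receptors and partners of the proteins were 6 measured genes on days 3 and 7, of which none passed 2-fold. On day 14, 1 of 7, the iron exporter gene Slc40a1, was higher. Of the listed neutrophil genes, 2 had enough UMIs in fibroblast-like cells on day 3 and none passed 2-fold. A list of inflammatory genes of stromal cells had 9 of 9 measured genes higher on day 3, 8 on day 7 and 7 on day 14. Over all genes the shares were 4.55%, 4.20% and 2.40%. This list too was chosen with earlier results of these libraries known, so its counts are no evidence about such genes. Ccl2 was at 0.451, 930, 337 and 49.9 CPM, Cxcl5 at 1.35, 398, 141 and 4.58 CPM and Timp1 at 259, 3063, 1182 and 262 CPM on days 0, 3, 7 and 14. Ccl2 and Cxcl5 had 1 and 3 UMIs on day 0. The median log2 ratio of the list was 3.51, 3.96 and 1.81 on days 3, 7 and 14.

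The genes most like each member were sought over 17 class and day groups of at least 20 cells among 13713 other genes, by Pearson's r of log2(CPM + 10). The groups share libraries, so r is a description. Saa3 was most like Cxcl5 (r = 0.91), Tnn (0.86) and Steap1 (0.86). Lcn2 was most like Fas (0.81), Dusp18 (0.81) and Hp (0.78), the only pair of members among these. Some of the levels behind this r rested on 1 cell. In smooth muscle-like cells 1 cell held 173 of the 191 Hp UMIs of day 7, and 1 cell held all 97 Lcn2 UMIs of day 14. Hp was most like Slc16a3 (0.81), Nlrx1 (0.81) and Med13l (0.80). Serpina3n was most like Shisa3 (0.97), Eef1akmt3 (0.97) and Hhipl1 (0.97), and Cp was most like Arpin (0.97), Fam149a (0.97) and Chrd (0.96). Between members r was 0.60 for Saa3 and Lcn2, 0.80 for Serpina3n and Cp and 0.13 for Hp and Cp.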

How the data were processed

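Carotid cells of 4 time points were profiled with a droplet 3′ kit, 1 library per time point. The authors deposited raw UMI counts per gene and barcode, made with Cell Ranger (3.0.2 per the file headers, whereas the methods name another version), and the barcodes are those called as cells. The submitters' processing notes name a human build for these mouse files, so no coordinates were taken from them. Barcodes with under 200 genes or over 20% mitochondrial UMIs (453 of 6161), shallow copies of shared barcodes (under 20% of the other copy's UMIs; 214) and the highest Scrublet scores at 0.8% per 1000 barcodes (106 marked, 1.72%, since its own threshold marked 15) were removed, leaving 5406 cells. No earlier doublet removal is stated in the sources used here.

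In scanpy 1.11.5 (leidenalg 0.10.2, igraph 0.11.9), counts were scaled to 10000 per cell, 2000 variable genes were chosen without the members and related lists, the mitochondrial share was regressed out, and 30 components and 15 neighbours entered Leiden clustering at resolution 1. Cluster names needed 3 markers (at least 50 CPM, in 10% of cells, 3 times the lower quartile of clusters with 20 CPM added). Shallow clusters needed 2 markers among 10 leading genes, unnamed or shallow ones of 60 or more cells were split once, and no name was given where no own marker led and another list had 5. These last rules, the merging of lymphocyte classes and of phagocyte classes, and the removal of copies were set after seeing the data. The study's own annotation was not used, so differences from the study may come from rebuilt names.

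Levels are CPM of summed counts with exact Poisson intervals, shares have Clopper-Pearson intervals, and ratios exact conditional binomial intervals. Against 0, a floor of 3 counts over the group was used. With 1 library per group no p-value was computed. The members and lists were chosen with earlier results of these data known. Named genes are the 8 members, at most 4 genes with values from each of 8 related lists, and the 3 genes most like each member with at least 50 UMIs. Scripts were tested on simulated data. Alternatives covered filters, doublets, resolution (0.5 and 2), clustering each library alone, members among the variable genes, cell means, cells above 30000 UMIs, the added CPM (10, or 1), the minimum of 20 UMIs, thinning and the 2-fold limit.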

Additional observations from a re-analysis of the deposited data

Results flagged for a closer look

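Several transcripts had opposite differences between days in different classes, with counting intervals on opposite sides of 1. With 1 library per day none of these differences was tested. Hp on day 7 was 1.78-fold its day 3 level in fibroblast-like cells, against 0.617-fold in mononuclear phagocyte-like and 0.582-fold in neutrophil-like cells. Among cells with up to 30000 UMIs the fibroblast-like ratio was 22.3, against 5 UMIs on day 3. Lcn2 on day 7 was 13.3-fold its day 3 level in smooth muscle-like cells and 0.332-fold in fibroblast-like cells, or 7.86 and 0.115 among cells with up to 30000 UMIs. Cp on day 7 was 3.47-fold its day 3 level in smooth muscle-like cells, 0.668-fold in fibroblast-like and 0.435-fold in mononuclear phagocyte-like cells. The smooth muscle-like difference turned without deep cells, with a ratio of 0.840 among cells with up to 30000 UMIs, so that none of these classes was then higher on day 7. From day 7 to day 14 the ratios of Cp were 0.145 in smooth muscle-like, 1.28 in fibroblast-like and 2.52 in mononuclear phagocyte-like cells. The fibroblast-like ratio turned to 0.759 among cells with up to 30000 UMIs and to 0.686 with each cell weighted equally. Saa3 on day 14 was 6.87-fold its day 7 level in smooth muscle-like cells and 0.0063-fold in fibroblast-like cells, and 28 of the 29 smooth muscle-like UMIs came from 1 cell.

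The removed copies of shared barcodes held member transcripts. On day 0 they held 154 UMIs of Saa3, 21 of Lcn2 and 13 of Hp. On day 14 they held 44 UMIs of Saa3, 33 of Lcn2 and 20 of Hp, and on day 3 they held 24 UMIs of Cp. When kept, 38 of the 48 day 0 copies fell into unnamed clusters and 10 into the smooth muscle-like class. Cells left without a name carried Saa3 at 91.2 CPM on day 3 and 75.2 CPM on day 7, Lcn2 at 56.6 and 64.9 CPM, and Hp at 73.8 CPM on day 7. The part of free RNA in these values was not tested.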

How the results depend on the processing

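Values were recomputed under up to 17 alternatives, of which keeping the shared copies, leaving out the 10 highest cells, leaving out F4 and leaving out shallow fibroblast-like cells were chosen after seeing the data. The values without the 1 or 2 highest cells of a group, beside the results, were also chosen so. Of 605 recomputed values, 498 stayed inside the reported counting interval or, for counts of members, close to the reported count. A further 106 moved outside these limits, and 1 log2 ratio past 2-fold was reversed. Of 194 log2 ratios, 191 kept their sign. The log2 ratio of Cp on day 3 turned from -1.17 to 0.019 without cells above 30000 UMIs. The count of members lower by 2-fold, 1 in the reported fit, was 0 on days 3, 7 and 14 when CPM was averaged over cells, and 0 on days 3 and 7 without cells above 30000 UMIs. With 1 CPM added, 2 members in place of 1 were higher on day 14. The share of Saa3 UMIs in fibroblast-like cells was 80.6% on day 7 without doublet removal. It was 50.7% and 79.3% on days 3 and 7 without cells above 30000 UMIs, a limit that removed more fibroblast-like cells than cells of any other class. The barcodes marked as doublets on day 7 held 624 Saa3 UMIs in 6 barcodes. They also held 761 of the 2978 Lcn2 UMIs of that library, in 10 barcodes, so the day 7 levels and shares of Lcn2 leave these out. The thinned share of fibroblast-like cells with Saa3 on day 3 was 29.8% without cells above 30000 UMIs and 28.6% without F4, and that of day 7 was 2.58% without F4. Without thinning it was 65.3%, 17.2% and 1.83% on days 3, 7 and 14. The cause of these shifts was not tested. No paired analysis was possible because each group has 1 library. Depth limits the day 0 values, which rest on 232 fibroblast-like cells and 2217600 UMIs.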
